A study of Mus musculus with 6 samples.

Results

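The genes described here were 10 genes of the muscle atrophy programme, taken as a list of names: the ubiquitin ligases Fbxo32, Trim63, Fbxo30 and Cblb, the transcription factors Foxo1, Foxo3, Foxo4 and Klf15, the mitophagy receptor Bnip3 and the secreted growth inhibitor Mstn. Of these 10, 8 had at least 1 transcript in the deposited values, and all 8 were among the 11593 genes tested, out of 11835 genes in all. Klf15 and Mstn had no transcript listed, so their expression was not analysed here and only their promoters enter below. RNA was sequenced from 6 libraries of C2C12 cells, a mouse myoblast line that forms myotubes when serum is lowered. Each library came from cells that were moved to medium with 2% horse serum to differentiate. The 3 siNC libraries came from cells given NC siRNA, a control siRNA, and the 3 siCNN3 libraries from cells given CNN3 siRNA, which targets the actin-binding protein calponin 3. No animal was involved, the cells of both groups carried no other stated change, and the RNA of a library was that of a whole transfected culture, so it could also hold cells with little knockdown. Which siRNA was used is not given in the sources used here, and the labels do not say whether the libraries of a group were separate cultures, so that the p-values measure the spread between these libraries, which may be technical.

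Skeletal muscle loses protein mainly through ubiquitin ligases that mark contractile and regulatory proteins for the proteasome, and through autophagy. FOXO transcription factors switch on several of these ligases in fasting, disuse and glucocorticoid excess, and AKT, the kinase downstream of insulin and IGF1, holds FOXO out of the nucleus by phosphorylation. Because that control acts on the FOXO protein, the RNA level of a FOXO gene does not show its activity.

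The promoters of this group are shown first for the pair of members that differ most in level, since Trim63 is a known direct target of FOXO factors and of the glucocorticoid receptor and Bnip3 one of FOXO3 and of the hypoxia factor HIF1. The sequences were taken from RefSeq (build GRCm38.p6), which gave a promoter for 8 of the 10 genes, those other than Fbxo32 and Foxo4, so that Klf15 and Mstn are among the 8 promoters and the set differs from the 8 genes with measured levels. Both are printed 5′ to 3′ on the strand of the gene and cover the 250 bases before the start of transcription. The Trim63 sequence lies at chr4:134314870-134315119 on the plus strand and the Bnip3 sequence at chr7:138909507-138909756 on the minus strand. In Trim63 the capitals mark TGTTCT, the glucocorticoid receptor hexamer AGAACA read on the other strand, then TGTTTAC, the FOXO site GTAAACA read on the other strand, and the TATA box. In Bnip3 they mark CACGTG, which holds the hypoxia response core ACGTG on both strands.
Trim63: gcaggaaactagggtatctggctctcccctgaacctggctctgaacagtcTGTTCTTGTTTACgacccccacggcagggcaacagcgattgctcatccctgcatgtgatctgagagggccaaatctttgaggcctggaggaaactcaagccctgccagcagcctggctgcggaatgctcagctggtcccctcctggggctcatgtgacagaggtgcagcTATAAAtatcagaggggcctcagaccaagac
Bnip3: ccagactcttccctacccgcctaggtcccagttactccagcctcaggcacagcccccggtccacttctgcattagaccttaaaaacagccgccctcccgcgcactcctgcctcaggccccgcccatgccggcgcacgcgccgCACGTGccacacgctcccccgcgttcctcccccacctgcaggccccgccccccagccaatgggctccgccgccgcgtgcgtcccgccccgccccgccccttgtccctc

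In Trim63, the hexamer began 200 bases before the start and the FOXO site 194 bases before it, so that they abutted, and the TATA box began 31 bases before it. The FOXO site was found, on either strand, in 1 of the 8 promoters searched, that of Trim63, and in 3.65% of all 32851 RefSeq promoters of the same length (250 bases before and 50 after the start). The hexamer AGAACA was also found in 1 of 8, and in 19% of all. The core ACGTG was in 3 of 8, namely Bnip3, Klf15 and Cblb, against 19.6% of all, and the CACGTG of Bnip3 began 108 bases before its start. The E-box CANNTG, bound by MYOD and myogenin and overlapping ACGTG where it reads CACGTG, was in 6 of 8 against 72.3%, and TATAAA was in 2 of 8, Trim63 and Mstn, against 13.6%. These matches describe letters only and no binding was measured.

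Some facts of the whole series bear on the values below. Cnn3 itself had 62.8, 61.4 and 62.8 FPKM (fragments scaled by transcript length and by the size of the library) in siNC replicates 1 to 3 and 19.04, 39.2 and 25.6 FPKM in siCNN3 replicates 1 to 3, so that the knockdown was present in every siCNN3 library and least in replicate 2. The 19 paired bases of each CNN3 siRNA, and those of the NC siRNA, matched 0 of the 12 transcripts of these genes. Over all genes, limma called 200 genes higher (1.73%) and 39 lower (0.336%) in siCNN3, against 199 and 93 after quantile normalization, and the median log2 fold change was 0.028. The fit without siCNN3 replicate 3 called more genes, 443 higher and 159 (1.37%) lower of 11611 tested, and list counts from it are to be read beside these. Library siCNN3 replicate 3 stood apart from its group: its log2 values correlated with those of siCNN3 replicates 1 and 2 with r = 0.947 and 0.956 (Pearson, across 11593 genes, which are not independent) and with siNC replicates 1 to 3 with r = 0.950, 0.941 and 0.951. Among the controls, siNC replicate 1 correlated with siNC replicates 2 and 3 with r = 0.949 and 0.968. With siCNN3 replicate 3 it reached r = 0.950, and it was the lowest siNC library for 58.8% of all genes tested. So siCNN3 replicate 3 was not the only library apart. The values of the 8 genes, the counts and medians of the lists and the called pathway genes are also given without siCNN3 replicate 3, a choice that keeps siNC replicate 1.

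The labels name the cells as myotubes. Of 25 myotube markers, 17 were listed, and the titin, nebulin and ryanodine receptor genes Ttn, Neb and Ryr1, the cardiac actin gene Actc1 and Myh8 were not. Their summed level over 16 tested genes was 206.6, 252.6 and 232.9 FPKM in siNC and 125.1, 122.9 and 140.0 FPKM in siCNN3, with 8 of 16 called lower and 0 higher (median log2 fold change -1.20), and 8 lower and 1 higher without siCNN3 replicate 3 (median -1.36). Ckm, the muscle creatine kinase, had 0.414 to 0.911 FPKM in siNC and was listed at 0, 0.0760 and 0 FPKM in siCNN3 replicates 1, 2 and 3. In the same libraries 20 of 30 interferon response genes were called higher (median log2 fold change 3.98), or 22 without siCNN3 replicate 3 (median 4.28), their summed level being 93.6 to 737 FPKM in siNC and 3251 to 6040 FPKM in siCNN3. Of 17 blood and macrophage markers, 7 were listed and 2 called lower, or 1 without siCNN3 replicate 3, with a summed level of 249 to 680.3 FPKM in siNC and 66.3 to 91.9 FPKM in siCNN3, and the defining markers Ptprc, Adgre1 and Csf1r were not listed. Among fat cell markers, 3 were tested and 1 was called lower, and among endothelial markers 1 was tested and 0 were called, counts that were the same without siCNN3 replicate 3. The part of the myotube, interferon and other marker genes in the values below was not tested, and in RNA of a whole culture fewer cells of a type and less RNA per cell cannot be told apart.

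The comparison asked whether transcripts of the atrophy programme differed between cells with less Cnn3 and control cells. None of the 8 genes was called in limma at an adjusted p below 0.05, in either direction, where 1.73% of all genes were called higher and 0.336% lower. At an unadjusted p below 0.05, 1 of 8 was lower, Foxo4, against 6.14% of all genes, and 0 were higher, against 9.94%. The log2 fold changes (siCNN3 against siNC, on the scale of log2(FPKM + 1)) ran from -0.62 to 0.22, with 5 below 0 and 3 above 0, and had a median of -0.21. The values of the groups did not overlap for 3 of 8 genes: Foxo4 and Trim63 were lower in every siCNN3 library than in any siNC library, against 9.35% of all genes, and Fbxo30 was higher in every one, against 13.8%. With 3 libraries against 3, an exact permutation test cannot give a p below 0.1.

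**Figure D1:**
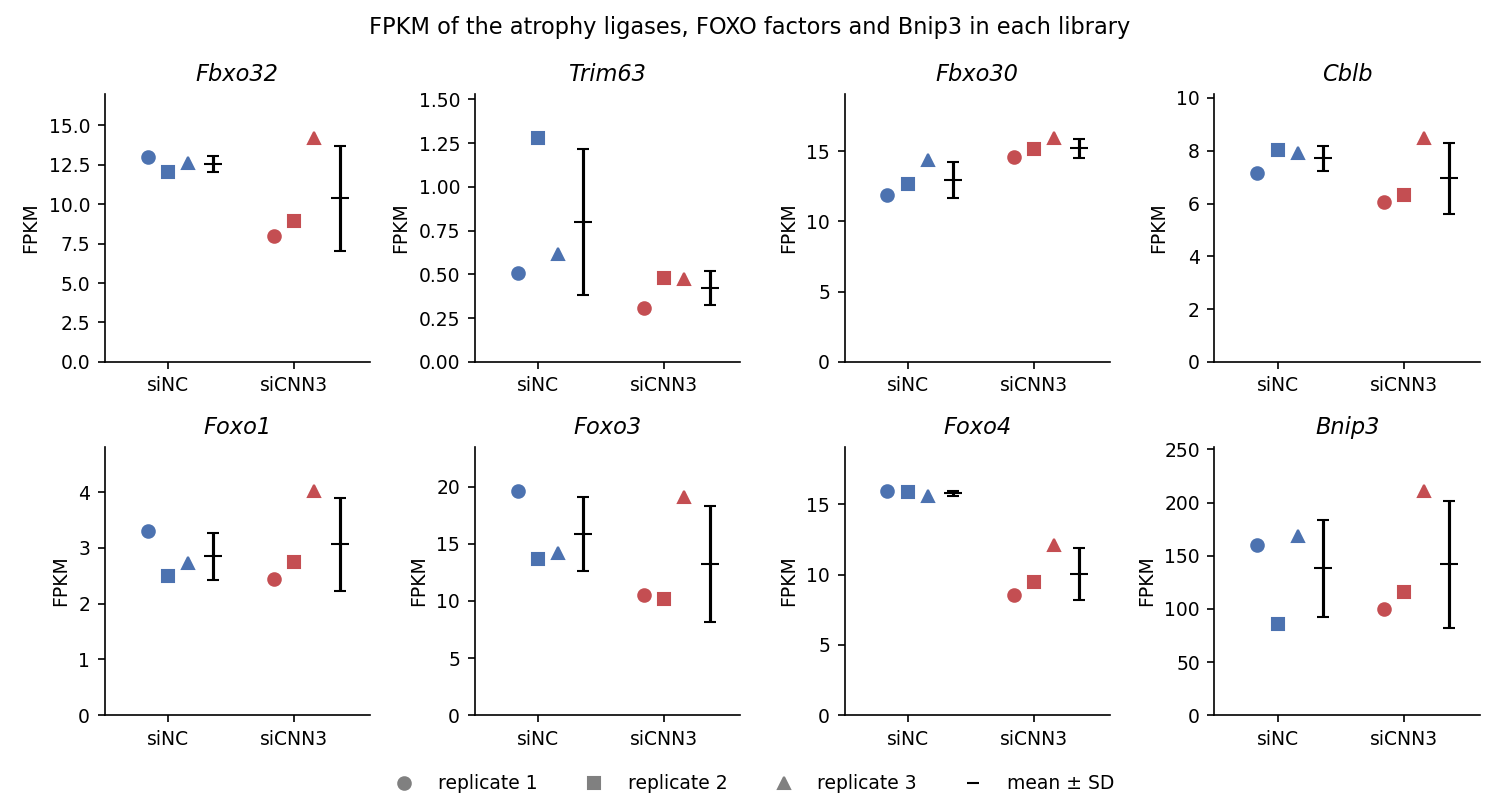
FPKM of the 8 genes in each library, 1 panel a gene, each with its own axis from 0; blue points are the 3 siNC libraries, red points the 3 siCNN3 libraries, and the bar beside them is the mean ± SD (n = 3). The groups are apart for Foxo4, Trim63 and Fbxo30, and the red triangle, siCNN3 replicate 3, is the highest of its group for 7 of the 8 genes.

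In the siNC libraries, levels per length ran from 138 FPKM for Bnip3 down to 0.8004 FPKM for Trim63. The order by mean was Bnip3, Foxo3, Foxo4, Fbxo30, Fbxo32, Cblb, Foxo1 and Trim63. The ranges of the 3 siNC libraries overlapped between Foxo3 and Foxo4 and between Fbxo30 and Fbxo32, so these neighbours did not differ beyond their spread, and the ranges of the other neighbours did not overlap.

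Among the ligases, Fbxo32 encodes atrogin-1, the F-box subunit of an SCF ligase that takes MYOD and the initiation factor eIF3f as substrates. Fbxo32 (chr15:58175879-58214932, minus strand, GRCm38) had 13.0, 12.0 and 12.6 FPKM in siNC replicates 1 to 3 and 7.997, 8.94 and 14.2 FPKM in siCNN3 replicates 1 to 3. The first and second siCNN3 libraries lay under every siNC library and the third above all of them. The siNC mean was 12.5 ± 0.495 FPKM and the siCNN3 mean 10.4 ± 3.33 FPKM (SD, n = 3). The log2 fold change was -0.29 (SE 0.211, 95% interval -0.79 to 0.21, limma adjusted p = 0.551). Without siCNN3 replicate 3 it was -0.52 (adjusted p = 0.0870). Without siCNN3 replicate 1 or 2 instead it was smaller, -0.14 (adjusted p = 0.902) or -0.21 (adjusted p = 0.858).

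Trim63 encodes MuRF1, a RING finger ligase that sits at the sarcomere and acts on myosin and other contractile proteins. Trim63 (chr4:134315120-134329629, plus strand) was the least expressed of the group, at 0.507, 1.28 and 0.616 FPKM in siNC and 0.310, 0.480 and 0.476 FPKM in siCNN3. All siCNN3 values were under all siNC values, but the gap was narrow, and siNC replicate 2 alone was above 1 FPKM. The siCNN3 mean of 0.422 ± 0.0969 FPKM was 52.7% of the siNC mean of 0.8004 ± 0.417 FPKM (SD, n = 3). The log2 fold change was -0.32 (SE 0.204, 95% interval -0.80 to 0.17, limma adjusted p = 0.496). The pseudocount shrinks a change at such a level, and with a pseudocount of 0.1 the value was -0.71, also not called. Without siCNN3 replicate 3 the log2 fold change was -0.35 (adjusted p = 0.393), and without siNC replicate 2 the gene fell under the filter on low values. Fbxo32 stood above Trim63 by a ratio of FPKM between 9.40 and 25.6 in siNC and between 18.6 and 29.8 in siCNN3, ranges that overlap.

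Fbxo30 encodes MUSA1, an F-box ligase known for its induction after denervation and for being held down by BMP signaling. It was the one ligase with higher values in siCNN3. Fbxo30 (chr10:11281330-11298052, plus strand) had 11.9, 12.7 and 14.4 FPKM in siNC and 14.6, 15.2 and 15.9 FPKM in siCNN3. The groups did not overlap, though siNC replicate 3 and siCNN3 replicate 1 nearly met. The means were 13.0 ± 1.28 and 15.2 ± 0.687 FPKM (SD, n = 3), and the log2 fold change was 0.22 (SE 0.128, 95% interval -0.086 to 0.52, limma adjusted p = 0.455), or 0.19 without siCNN3 replicate 3 (adjusted p = 0.435).

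Cblb encodes CBL-B, a ligase that lowers insulin and IGF1 signaling by acting on IRS1 in unloaded muscle. Cblb (chr16:52031225-52208048, plus strand) had 7.16, 8.04 and 7.93 FPKM in siNC and 6.07, 6.30 and 8.47 FPKM in siCNN3. As for Fbxo32, siCNN3 replicates 1 and 2 were under every siNC library and replicate 3 above them all. The log2 fold change was -0.14 (SE 0.162, 95% interval -0.53 to 0.24, limma adjusted p = 0.711), and -0.28 without siCNN3 replicate 3 (adjusted p = 0.272). Without siCNN3 replicate 1 or 2 instead it was -0.065 (adjusted p = 0.951) or -0.089 (adjusted p = 0.930).

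Of Foxo1, Foxo3 and Foxo4, Foxo1 was the lowest in every library. Foxo4 is the X-linked member of the family. Foxo4 (chrX:101254528-101260873, plus strand) had 15.9, 15.9 and 15.6 FPKM in siNC and 8.54, 9.51 and 12.1 FPKM in siCNN3. The siNC libraries were nearly alike, and each siCNN3 library was lower, replicate 3 the least so. The siCNN3 mean of 10.1 ± 1.87 FPKM was 63.7% of the siNC mean of 15.8 ± 0.180 FPKM (SD, n = 3). Its log2 fold change of -0.62 (SE 0.153, 95% interval -0.98 to -0.25) was the largest in size of the 8 at a pseudocount of 1, but did not pass the threshold (limma adjusted p = 0.107). With a pseudocount of 0.1 it was -0.66, and that of Trim63 was larger in size, at -0.71. Without siCNN3 replicate 3 the value of Foxo4 was -0.75 and passed the threshold (adjusted p = 0.0310), in a fit that called 1.37% of all genes lower. In the other 13 alternatives the gene was not called, and over all 14 its log2 fold change stayed between -0.75 and -0.52 with adjusted p up to 0.377.

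Foxo3 is the member best known for driving ligases and autophagy genes in muscle. Foxo3 (chr10:42181841-42276755, minus strand) had 19.6, 13.7 and 14.2 FPKM in siNC and 10.5, 10.2 and 19.1 FPKM in siCNN3. The first and second siCNN3 libraries were under all siNC values, while siCNN3 replicate 3 was close to siNC replicate 1, the highest. The means were 15.8 ± 3.25 and 13.3 ± 5.09 FPKM (SD, n = 3), and the log2 fold change was -0.28 (SE 0.265, 95% interval -0.91 to 0.35, limma adjusted p = 0.652). Without siCNN3 replicate 3 it was -0.56 (adjusted p = 0.146). It was smaller without siCNN3 replicate 1 (-0.15, adjusted p = 0.926), siCNN3 replicate 2 (-0.13, adjusted p = 0.930) or siNC replicate 1 (-0.13, adjusted p = 0.877).

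Foxo1, which links insulin signaling to metabolic genes and also drives Trim63, showed no such gap. Foxo1 (chr3:52268336-52353221, plus strand) had 3.31, 2.49 and 2.73 FPKM in siNC and 2.44, 2.74 and 4.01 FPKM in siCNN3. The groups overlapped, and the highest and the lowest value were both from siCNN3. The log2 fold change was 0.066 (SE 0.194, 95% interval -0.39 to 0.53, limma adjusted p = 0.900) and turned to -0.095 without siCNN3 replicate 3 (adjusted p = 0.754).

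Summed over Foxo1, Foxo3 and Foxo4, the siNC libraries had 38.8, 32.1 and 32.6 FPKM and the siCNN3 libraries 21.5, 22.4 and 35.3 FPKM. The sums were 34.5 ± 3.76 and 26.4 ± 7.72 FPKM (SD, n = 3) and overlapped through siCNN3 replicate 3 alone. The makeup of the sum is given as a description, since it was looked at after the values were seen. Foxo1 made up 8.53%, 7.77% and 8.40% of it in siNC and 11.4%, 12.2% and 11.4% in siCNN3, so that its share did not overlap between the groups. The share of Foxo4 was 41.0%, 49.5% and 47.9% in siNC and 39.8%, 42.4% and 34.4% in siCNN3, and that of Foxo3 was between 42.8% and 54.2% in all 6 libraries. Both overlapped. Foxo6, the remaining family member, had 1.06 to 1.57 FPKM in siNC against 0.458, 0.590 and 2.06 FPKM in siCNN3, again with replicate 3 apart.

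**Figure D2:**
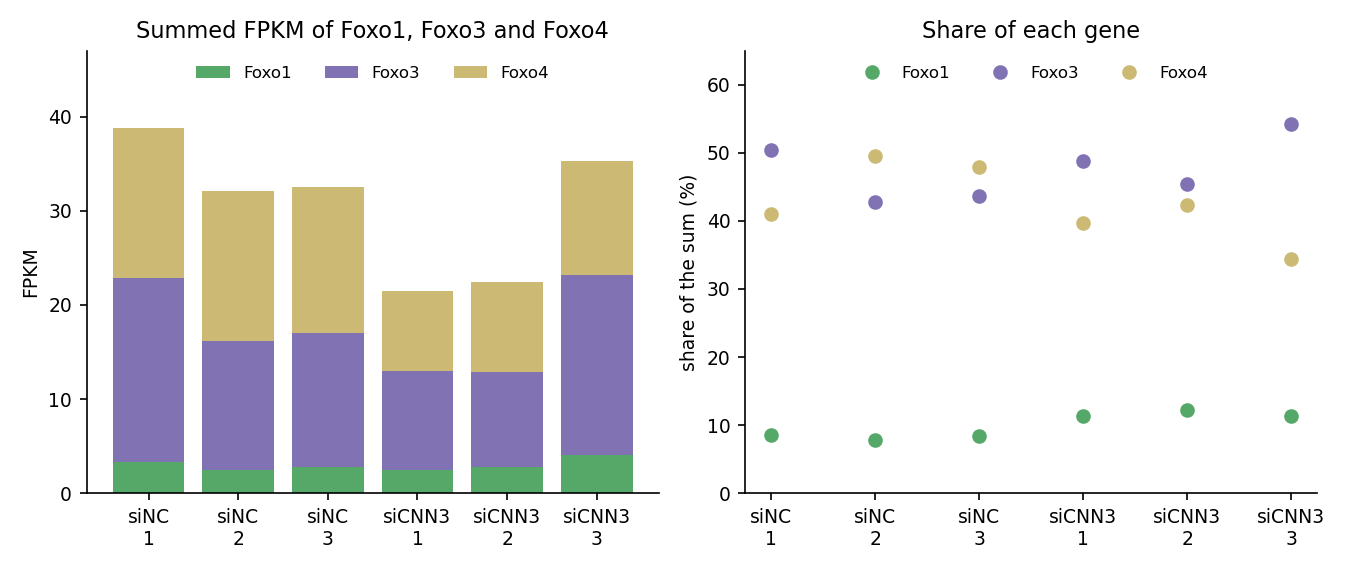
Left, FPKM of Foxo1, Foxo3 and Foxo4 stacked for each library; right, the share of each gene in that sum, in percent. The sum is 21.5 and 22.4 FPKM in siCNN3 replicates 1 and 2 and 35.3 FPKM in replicate 3, and the share of Foxo1 is above 11% in every siCNN3 library and under 9% in every siNC library.

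Bnip3 encodes a receptor in the outer mitochondrial membrane that binds LC3 and draws mitochondria into autophagosomes. Bnip3 (chr7:138890836-138909519, minus strand) was the highest of the group, at 159.9, 85.8 and 169 FPKM in siNC and 99.8, 116 and 210.4 FPKM in siCNN3. The groups overlapped fully, with the lowest value in siNC replicate 2 and the highest in siCNN3 replicate 3. The means were 138 ± 45.5 and 142 ± 59.7 FPKM (SD, n = 3), and the log2 fold change was 0.024 (SE 0.353, 95% interval -0.81 to 0.86, limma adjusted p = 0.984). This interval is the widest of the 8, and the value was -0.30 (adjusted p = 0.579) when siCNN3 replicate 3 was left out and -0.28 (adjusted p = 0.686) when siNC replicate 2 was.

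**Figure D3:**
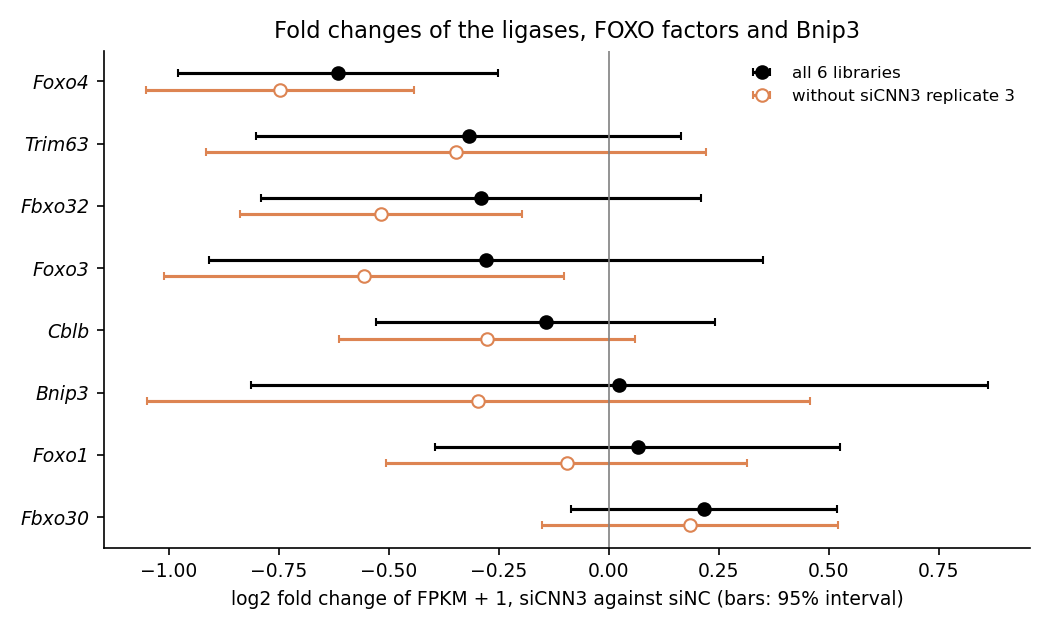
Log2 fold change of FPKM + 1 (siCNN3 against siNC) of the 8 genes with 95% intervals from limma; filled points use all 6 libraries and open points leave out siCNN3 replicate 3. With all libraries the interval of Foxo4 alone excludes 0, and without replicate 3 those of Foxo4, Fbxo32 and Foxo3 do.

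Most of these genes had the same order within siCNN3, replicate 1 lowest and replicate 3 highest. Replicate 3 was the highest siCNN3 library for 7 of the 8 genes, where it was the highest for 38.0% of all genes tested, and replicate 1 was the lowest for 7 of 8, where it was the lowest for 31.9%. Trim63 was the exception for replicate 3 and Foxo3 for replicate 1. The median difference of the 8 genes from their siNC mean was -0.42, -0.26 and 0.22 in siCNN3 replicates 1, 2 and 3 (log2), against 0.029, -0.041 and -0.0042 in siNC replicates 1, 2 and 3. Without siCNN3 replicate 3, the median log2 fold change was -0.32, and 5 of the 8 genes were lower without overlap (20.2% of all genes), namely Fbxo32, Trim63, Foxo3, Foxo4 and Cblb. Fbxo30 was higher without overlap (27.9% of all genes), and Foxo1 and Bnip3 overlapped. With siCNN3 replicate 1 or replicate 2 left out instead, the median log2 fold change of the 8 genes was -0.10 or -0.11. The genes share the same libraries and are not separate measures of the order of the siCNN3 libraries.

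The place of siCNN3 replicate 3 varied between the other lists. It was the highest of the 6 libraries by the median difference of the 30 listed FOXO target genes (-0.16, -0.20 and 0.32 in siCNN3 replicates 1, 2 and 3), of the glucocorticoid list (-0.16, -0.032 and 0.12), of the other proteases (-0.0062, 0.12 and 0.16) and of the other ligases of muscle (0.046, 0.025 and 0.061). On the myostatin list it was the highest of its group (-0.11, -0.18 and 0.029). It was the lowest of its group on the list of the SCF core, deubiquitinases and ubiquitin-conjugating enzymes (0.089, 0.088 and -0.024) and on that of genes upstream of FOXO (0.021, 0.035 and -0.024). The myotube markers, at -1.46, -1.26 and -1.06, had the order of the median of the 8 genes within siCNN3, but all 3 libraries lay under every siNC library. The interferon response genes were at 4.36, 4.32 and 3.27, so that replicate 3 had the smallest rise in them. Cnn3 was lower in replicate 3, at 25.6 FPKM, than in replicate 2, at 39.2 FPKM. The part of these differences between libraries in the values of the ligases and FOXO factors was not tested.

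**Figure D4:**
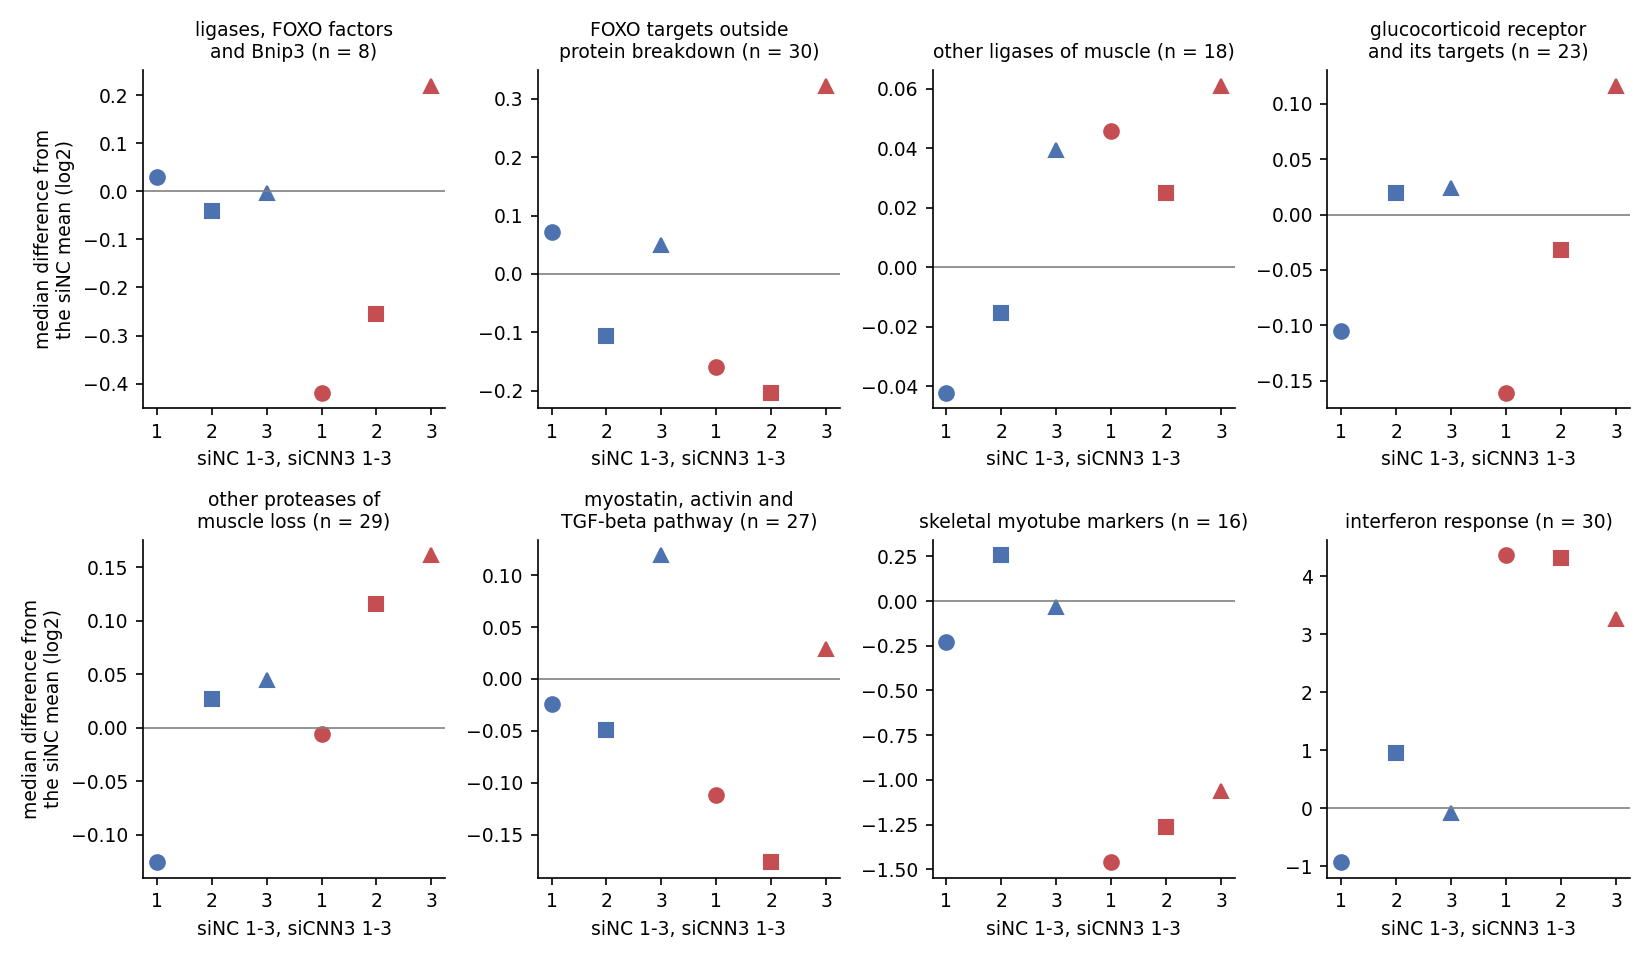
Median over the genes of a list of the log2 difference from the siNC mean, for each library (x axis: siNC replicates 1 to 3 in blue, then siCNN3 replicates 1 to 3 in red; each of the 8 panels has its own y axis). siCNN3 replicate 3 is the highest of the 6 libraries for the ligases and FOXO factors (0.22), the FOXO targets (0.32), the other ligases (0.061), the glucocorticoid list (0.12) and the other proteases (0.16), and lies with its group for the myotube markers (-1.06) and the interferon response genes (3.27).

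At the level of transcripts, 12 were listed for the 8 genes, 11 passed the filter and 0 were called in limma, with and without siCNN3 replicate 3, where 0.54% of all transcripts tested were called. Fbxo32, Trim63, Fbxo30, Foxo1 and Foxo4 had 1 transcript each, so their gene values are those of that transcript. A Foxo3 transcript of 6848 nucleotides and 4 exons carried between 79.5% and 93.1% of the Foxo3 level. The Foxo3 transcripts of 1316 and 2535 nucleotides ranged from 0.510 to 2.74 FPKM and from 0.287 to 1.27 FPKM, and the groups overlapped for both. The shorter of the Cblb transcripts, of 3864 nucleotides, made up between 8.32% and 9.08% of the Cblb level in 5 libraries and 17.6% in siCNN3 replicate 3, where it had 1.49 FPKM against 0.505 to 0.730 FPKM elsewhere. Such a split of FPKM between transcripts of 1 gene is an estimate, and the reads behind it are unknown. For Bnip3, the transcript of 1756 nucleotides carried between 99.6% and 99.9% of the level, and that of 719 nucleotides was under the filter.

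The other genes of the pathway were taken from 11 lists, which hold 277 genes counted once. Of the 247 tested, 5 were called higher and 6 lower, beside 1.73% and 0.336% of all genes, and their median log2 fold change was -0.021, or -0.028 without siCNN3 replicate 3. List medians near 0 also changed sign between alternatives. These counts moved with single libraries: without siNC replicate 3 or without siCNN3 replicate 2 only 1 gene was called, without siCNN3 replicate 1 there were 2, without siNC replicate 2 there were 7, and without siCNN3 replicate 3 there were 24. Those 24 were 11 higher and 13 lower, beside 443 and 159 of all 11611 genes in that fit. Acta1 was the one gene whose call was kept in all 14 alternatives.

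Among 18 other ligases of muscle, 1 was called higher and 0 lower, with a median of 0.058, and without siCNN3 replicate 3 these were 1, 0 and 0.051. Mdm2, the ligase of p53, had 7.01, 6.04 and 5.46 FPKM in siNC and 12.1, 12.1 and 11.2 FPKM in siCNN3. It rose by 0.84 (log2, SE 0.139, limma adjusted p = 0.0372), a call lost in 8 of 14 alternatives with adjusted p up to 0.189 (0.88 without siCNN3 replicate 3, adjusted p = 0.0353). Nedd4, a HECT ligase, was at -0.75 (adjusted p = 0.290) and Ubr2, an N-end rule ligase, at 0.22 (adjusted p = 0.383), neither called. The muscle ligase genes Fbxo40, Fbxl22, Trim72, Asb2 and Asb15 were not listed.

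The SCF core, deubiquitinases and ubiquitin-conjugating enzymes, 22 genes tested, had a median of 0.081, or 0.092 without siCNN3 replicate 3. Usp14, a deubiquitinase of the proteasome, had 32.4, 31.6 and 37.1 FPKM in siNC and 41.3, 42.5 and 39.7 FPKM in siCNN3. Its values did not overlap between the groups, but it did not pass the threshold (0.28, limma adjusted p = 0.288), nor did the ubiquitin gene Ubb (0.30, adjusted p = 0.385).

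Of 33 genes upstream of FOXO, 0 were called by limma, with 2 higher and 0 lower at an unadjusted p below 0.05 and a median of -0.043. Leaving out siCNN3 replicate 3, 0 were called too and the median turned to 0.039. The smallest p-values were those of Ywhag, a 14-3-3 protein of the kind that holds phosphorylated FOXO in the cytoplasm (0.34, adjusted p = 0.179), the nuclear export receptor gene Xpo1 (0.39, adjusted p = 0.211) and Pik3r1, the regulatory subunit of PI3 kinase (-0.32, adjusted p = 0.325). The growth factor genes Igf1 and Igf2 were not listed.

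The list of FOXO targets had 2 of 30 genes called higher and 0 lower, with a median of -0.0040, and without siCNN3 replicate 3 these were 2, 1 and -0.13. The figures label this list as outside protein breakdown, but it also held the ligase genes Fbxo21 and Fbxo31, the cathepsin gene Ctsl and several autophagy genes. Eif4ebp1, which binds eIF4E and holds back translation, had 30.8, 32.5 and 35.2 FPKM in siNC and 59.5, 59.8 and 57.2 FPKM in siCNN3. It rose by 0.82 (log2, SE 0.105, limma adjusted p = 0.0165), a call lost in 4 of 14 alternatives with adjusted p up to 0.117 (0.84 without siCNN3 replicate 3, adjusted p = 0.0155). Gadd45a, a stress gene that is also on the denervation list, had 136, 113 and 103 FPKM in siNC and 201, 176 and 210.4 FPKM in siCNN3, but its call (0.74, SE 0.136, adjusted p = 0.0499) was lost in 13 of 14 alternatives, among them that without siCNN3 replicate 3 (0.68, adjusted p = 0.0595). Sesn1, a brake on mTORC1, went the other way at -0.76 (adjusted p = 0.0914, and 0.0282 at -0.91 without siCNN3 replicate 3). Without that library Tnfsf10, a death ligand named here after its value was seen, was the second target called higher (1.98, adjusted p = 0.00278).

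Of 23 genes of the glucocorticoid receptor and its targets, 0 were called higher and 1 lower, with a median of -0.00062, and without siCNN3 replicate 3 these were 1, 3 and -0.098. Hsd11b1, the enzyme that makes active glucocorticoid inside cells, had 6.03, 7.52 and 7.98 FPKM in siNC and 2.53, 2.76 and 2.86 FPKM in siCNN3. Its log2 fold change was -1.13 (SE 0.154, limma adjusted p = 0.0212), a call lost in 5 of 13 alternatives with adjusted p up to 0.117 (-1.16 without siCNN3 replicate 3, adjusted p = 0.0227). Got1, an aspartate aminotransferase, was at 1.00 (adjusted p = 0.0529) and Mt1, a metallothionein, at -0.72 (adjusted p = 0.128). Both passed the threshold without siCNN3 replicate 3, at 1.11 (adjusted p = 0.0397) and -0.92 (adjusted p = 0.0244), as did the metallothionein Mt2, named after its value was seen (-0.57, adjusted p = 0.0424). Got1 also passed with the filter at 5 FPKM (adjusted p = 0.0471), median-of-ratios scaling (adjusted p = 0.0300) and quantile normalization (adjusted p = 0.0401).

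The myostatin, activin and TGF-beta list had 0 of 27 genes called by limma, with 3 higher and 6 lower at an unadjusted p below 0.05 and a median of 0.0070. Its sign rested on the setting: the median was -0.15 without siCNN3 replicate 3, with 1 called higher and 2 lower, -0.12 without siNC replicate 2, -0.24 with the filter at 5 FPKM, -0.14 with no filter and -0.11 with quantile normalization. Dcn, a proteoglycan that binds TGF-beta and myostatin, was at -1.21 (adjusted p = 0.0751) and passed without siCNN3 replicate 3 (-1.44, adjusted p = 0.0243), as did Inhbb, an activin subunit, at -0.74 (adjusted p = 0.0409) and Smad2, a mediator of activin signals, at 0.67 (adjusted p = 0.0494), both named after their values were seen. Skil, a repressor of SMAD signaling, was at 1.22 (adjusted p = 0.0832) and Ltbp1, which stores latent TGF-beta, at 0.50 (adjusted p = 0.109). The myostatin receptor gene Acvr2b was under the filter, at 0.282 to 0.798 FPKM in siNC and 0.0457, 0.0511 and 0.628 FPKM in siCNN3.

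Of 23 mitophagy partners of BNIP3, 0 were called by limma, with 1 higher and 3 lower at an unadjusted p below 0.05 and a median of -0.032. When siCNN3 replicate 3 was left out, 0 were called higher and 2 lower and the median was -0.066. Rheb, which activates mTORC1, was at 0.47 (adjusted p = 0.128) and Egln3, a prolyl hydroxylase of HIF1, at -0.73 (adjusted p = 0.216). Hif1a, the oxygen-regulated subunit of HIF1, was at -0.45 (adjusted p = 0.177) and passed without siCNN3 replicate 3 (-0.57, adjusted p = 0.0436), as did Gabarap, an autophagosome protein of the LC3 family named after its value was seen (-0.52, adjusted p = 0.0384).

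Among 27 inflammatory and NF-kB genes, 1 was called higher and 0 lower, with a median of 0.037, and without siCNN3 replicate 3 these were 1, 1 and -0.023. Il6 had 13.2, 7.59 and 5.66 FPKM in siNC and 30.6, 30.7 and 26.7 FPKM in siCNN3. It rose by 1.70 (log2, SE 0.271, limma adjusted p = 0.0333), a call lost in 7 of 14 alternatives with adjusted p up to 0.140 (1.76 without siCNN3 replicate 3, adjusted p = 0.0398). The receptor genes Il6ra and Lifr were at -0.59 (adjusted p = 0.106) and -0.75 (adjusted p = 0.111), and Lifr passed without siCNN3 replicate 3 (-0.94, adjusted p = 0.0179).

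The list of other proteases of muscle loss had 0 of 29 genes called by limma, with 9 higher and 1 lower at an unadjusted p below 0.05, the median being 0.10. It also held genes of proteins that are not proteases, among them the calpain inhibitor Cast and the transcription factors Tfeb, Foxk1 and Foxk2. In the fit without siCNN3 replicate 3, 4 of the 29 were called higher and 0 lower, again with a median of 0.10. That fit called 443 of all 11611 genes higher. Ctss, a lysosomal cathepsin, had 0.712, 0.355 and 0.247 FPKM in siNC and 11.7, 7.50 and 2.59 FPKM in siCNN3, a log2 fold change of 2.36 (adjusted p = 0.0530) and of 2.87 without siCNN3 replicate 3 (adjusted p = 0.00404). It also passed with a pseudocount of 0.1 (3.63, adjusted p = 0.0381). The proteasome subunits Psma1 and Psmd11 were at 0.45 (adjusted p = 0.106) and 0.46 (adjusted p = 0.116), and Psma1 passed without that library (0.53, adjusted p = 0.0478). The proteasome subunit Psmb3, named after its value was seen, passed without it too (0.66, adjusted p = 0.0401).

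On the denervation and HDAC4 list, 1 of 14 genes was called higher, Gadd45a, and 0 lower, with a median of -0.22. Once siCNN3 replicate 3 was left out, 0 were called and the median was -0.36. Myog, the myogenin gene that drives Fbxo32 and Trim63 in denervated muscle, had 1.23, 3.07 and 2.26 FPKM in siNC and 0.785, 0.907 and 0.485 FPKM in siCNN3. It did not pass the threshold (-0.85, adjusted p = 0.159), nor did Chrng, the fetal acetylcholine receptor subunit (-0.80, adjusted p = 0.0692), which passed it with quantile normalization alone of the 13 alternatives that included it (-0.91, adjusted p = 0.0474).

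Of the 11 lists, the one with the most calls over all 6 libraries was that of proteins reported as substrates of the ligases, with 0 of 17 genes called higher and 5 lower and a median of -0.28. All 5 are contractile genes: the skeletal actin gene Acta1 at -2.12 (limma adjusted p = 0.00473), the myosin light chains Mylpf at -1.88 (adjusted p = 0.00990) and Myl1 at -0.92 (adjusted p = 0.0494), the fast troponin I gene Tnni2 at -1.69 (adjusted p = 0.00990) and the embryonic myosin Myh3 at -1.38 (adjusted p = 0.0193). Acta1 had 24.6, 33.8 and 26.9 FPKM in siNC and 5.37, 5.35 and 6.43 FPKM in siCNN3, with no overlap. Without siCNN3 replicate 3, 4 were called lower and 0 higher, as many calls as on the glucocorticoid list and among the other proteases, the median was -0.41, Acta1 was at -2.20 (adjusted p = 0.00278) and Myl1 was not called (-0.87, adjusted p = 0.0577). The 5 genes are also among the 8 called myotube markers above, so the lists are not separate evidence. The calls of Mylpf, Tnni2, Myh3 and Myl1 were lost in 2 of 14, 3 of 13, 4 of 13 and 9 of 14 alternatives. These values are of RNA, and protein breakdown was not measured in these libraries.

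**Figure D5:**
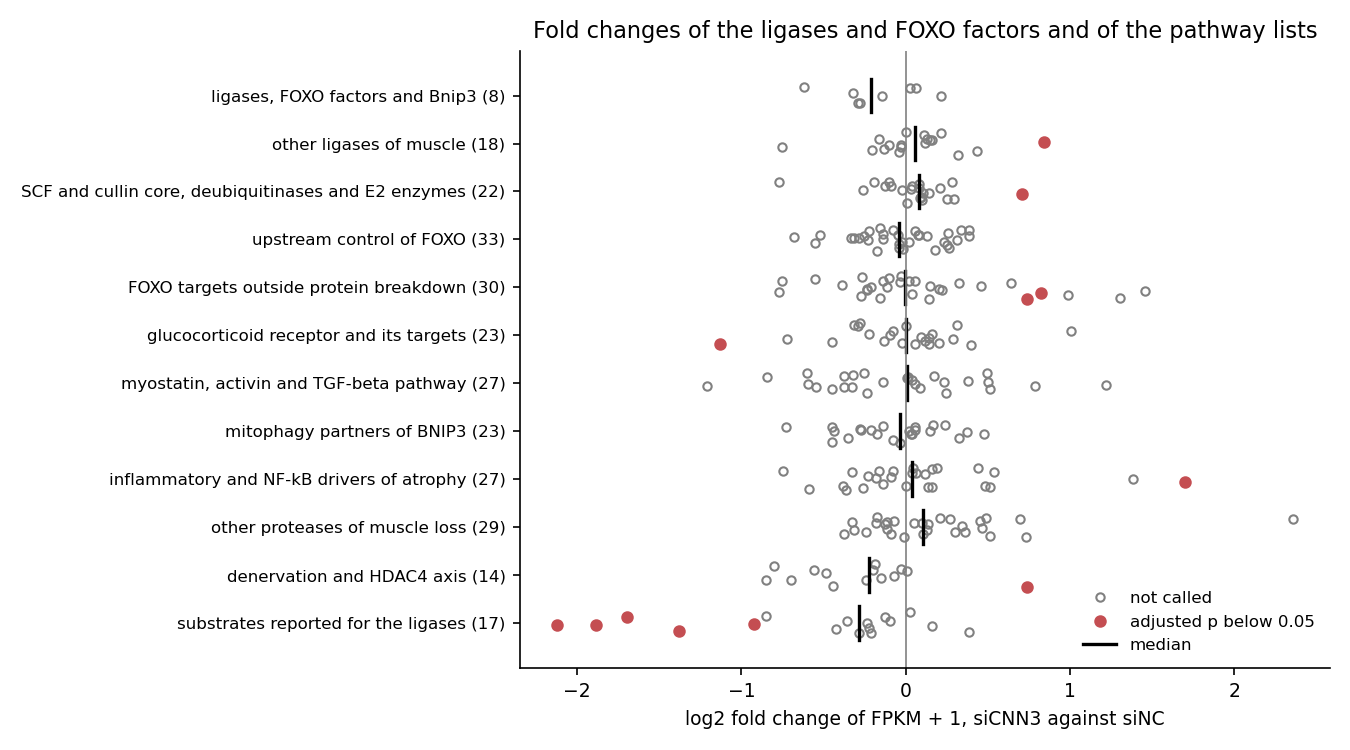
Log2 fold change of FPKM + 1 (siCNN3 against siNC) of each gene tested, by list, with the number of genes in brackets; filled red points passed an adjusted p below 0.05 in limma, and black bars are medians. No point of the ligases, FOXO factors and Bnip3 is filled, their median is -0.21, and the substrate list holds 5 of the called genes.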

How the data were processed

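RNA of 6 libraries was sequenced. The authors deposited FPKM values for 24023 Ensembl transcripts, and their processing notes name Bowtie 0.12.2 and the builds mm8 and mm10. The program that made the FPKM and its annotation are not given in the sources used here. The deposited values go down to 1e-06 FPKM and allowed no recovery of whole reads, so that neither depth nor counting error is known. Library totals were 322621 to 355591 FPKM. Identifiers were matched without version to GENCODE vM21 (GRCm38, reference chromosomes), which matched 23949 transcripts, and FPKM were summed by gene. The 74 unmatched transcripts held at most 0.22% of a library. In 235 transcripts a value of 0 stood beside at least 10 FPKM in another library of the group.

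Genes whose mean over the 6 libraries reached 0.5 FPKM were fitted as log2(FPKM + 1) with limma 3.58.1 in R 4.3.3 (trend, two-sided, Benjamini-Hochberg over all genes, threshold 0.05), after a test of the fit on simulated data. The genes and lists were chosen with earlier results of these data known. The 8 listed genes were all named, and in each pathway list the called genes or, where fewer than 3 were called, those with the smallest p up to 3. A gene that this rule names is not reported here. Alternatives were a pseudocount of 0.1, median-of-ratios scaling, quantile normalization, no filter on low values or a filter of 5 FPKM, no trend, a replicate block, removal of the 235 transcripts and each library left out. Promoter motifs were searched on both strands. Python 3.11.15, pandas 2.3.3, numpy 2.4.6 and matplotlib 3.10.9 were used.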

Additional observations from a re-analysis of the deposited data

How the results depend on the processing

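The count of 0 of 8 ligases, FOXO factors and Bnip3 called held in 13 of 14 alternatives and ranged from 0 to 1 when single libraries were left out, the 1 being Foxo4 without siCNN3 replicate 3. The number of these genes whose groups did not overlap, 3, ranged from 3 to 6 in the same way. The other 6 of these genes kept their sign in every alternative that included them, where the filter at 5 FPKM left out Trim63 and Foxo1. Bnip3 turned to -0.014 with median-of-ratios scaling and to -0.11 with quantile normalization and ranged from -0.30 to 0.24 with single libraries left out, and Foxo1 ranged from -0.095 to 0.18 (-0.00084 without siNC replicate 2). Among all genes, 200 higher and 39 lower calls ranged from 16 to 443 and from 4 to 159 with single libraries left out, and lower calls were 63 with median-of-ratios scaling and 93 with quantile normalization. The 11 pathway calls ranged from 1 to 24. Over all named genes and alternatives, a call was lost 61 times and gained 14 times. List medians moved by more than the spread between libraries 28 times, most often with quantile normalization or single libraries left out. The cause was not tested.

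The replicate numbers did not pair the samples: deviations of same-numbered libraries correlated by -0.28, 0.31 and -0.025 for numbers 1 to 3 (across genes). Between libraries of different numbers the values ran from -0.45 to 0.44. The lowest was that of siNC replicate 2 with siCNN3 replicate 3, and the highest that of siNC replicate 1 with siCNN3 replicate 3. So some variation was shared between libraries of the 2 groups, and its source was not tested. With the replicate block, 62 genes were called higher and 6 lower and the pathway calls were 3, while none of the 8 genes was called. FPKM without read numbers give no depth, so the counting error of the low genes Trim63 and Foxo1 is unknown.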
